A study of Arabidopsis thaliana with 42 samples.

Results

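The comparison set arp6vil1 seedlings against vil1 seedlings of Arabidopsis thaliana, both kept at 22 °C, and so measured what the arp6 mutation added in plants that carry vil1. Its members were chosen by genotype and temperature labels alone: 2 arp6vil1 and 2 vil1 libraries, which are 4 of the 12 RNA-seq libraries in the study. The arp6vil1 plants carried arp6 together with vil1, and the plants they were set against carried vil1-1 alone. The arp6 single mutant and wild type, with 2 libraries each at 22 °C, were used to ask whether the same mutation had another effect in plants without the vil1 mutation. All plants were of the Col-0 ecotype, and total RNA came from whole seedlings 14 days old, harvested at ZT-6. Plants were grown under a long or a short photoperiod, and the label does not tie the RNA libraries to either; the arp6 allele is not given in the sources used here. The 30 chromatin immunoprecipitation samples of the study were not analysed here.

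ARP6 is a nuclear actin-related protein and a subunit of the SWR1 complex, which places the histone variant H2A.Z into nucleosomes near the start of many genes. H2A.Z affects how readily genes answer temperature and other signals, and arp6 mutants are known for early flowering and reduced FLC expression. VIL1, also called VRN5 and listed under that symbol, is a PHD finger protein that works with Polycomb repressive complex 2, which deposits the repressive mark H3K27me3. It is known for silencing FLC, the central repressor of flowering, after winter cold.

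Levels are given as scaled RPKM, that is, the deposited RPKM (reads per kilobase, relative to depth) divided by a library factor taken from nuclear genes. Differences are on the log2(scaled RPKM + 1) scale, which understates the change of genes at low levels, and were tested with limma and Benjamini-Hochberg adjustment over 31454 features. Nothing in the labels says that libraries of a genotype came from separate cultures, so the p-values measure only the spread between these libraries.

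The groups differed in library composition. Of all RPKM, plastid-encoded genes took 17% and 14.9% in arp6vil1, against 7.57 and 7.16% in vil1, and ribosomal RNA took 6.50 and 9.49% in arp6vil1, against 0.856 and 1.10% in vil1. Depths of 86.3 and 102.8 M reads in arp6vil1 and 73.5 and 86.9 M reads in vil1 were recovered from the RPKM values. Replicates correlated at r = 0.987 within arp6vil1 and 0.989 within vil1, and at 0.909 to 0.919 between the genotypes. The arp6 libraries stood apart from the rest: 6651 and 6566 features were listed at 0 in them, against 123 and 121 in wild type, 145 and 156 in arp6vil1 and 185 and 138 in vil1.

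ARP6 itself was read first, as a check of the labels. It had 1.21 and 1.19 scaled RPKM in arp6vil1, against 13.5 and 13 in vil1, a log2 difference -2.70 ± 0.10 SE, adjusted p = 3.1e-07. Both arp6vil1 libraries lay far below both vil1 libraries, and close to the 10th percentile of coding genes, which was 0.705 and 0.677 deposited RPKM in arp6vil1 and 0.664 and 0.702 in vil1. In the other pair of genotypes ARP6 had 0.407 and 0.216 in arp6, against 13.5 and 12.5 in wild type. An adjacent gene, AT3G33530, overlaps ARP6, and strandedness of the libraries is not given in the sources used here. VRN5 had 3.77 and 4.13 scaled RPKM in arp6vil1, against 4.83 and 4.98 in vil1, and 8.88 and 8.46 in arp6, against 6.3 and 6.1 in wild type. Most of the VRN5 signal of wild type was thus still present in the libraries labelled vil1. Values per gene do not show which part of a transcript is made, and the place of the vil1-1 lesion is not given in the sources used here, so they do not check the vil1 label. Between arp6vil1 and vil1 its log2 difference -0.25 ± 0.08 SE, adjusted p = 0.017 did not pass after a trend with gene length was removed (-0.11, adjusted p = 0.26), or without arp6vil1 replicate 1 (adjusted p = 0.13), vil1 replicate 1 (0.057) or vil1 replicate 2 (0.091).

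Across all features, 59% passed an adjusted p under 0.05, with 33% higher and 25.9% lower in arp6vil1. A log2 difference of at least 1 in size was met by 7.55% (2375) higher and 3.71% (1166) lower. The largest rises and falls named below are of this size, while the gene lists also count smaller differences that passed. The median over all features was 0.12, and it was -0.40 with the RPKM as deposited, which turned the split of calls to 2251 higher and 15992 lower. Calls also went with level: among features under 1 scaled RPKM in vil1, 48.4% were higher and 0.183% lower, from 2 to 5 scaled RPKM 19.4% were higher and 45.4% lower, from 5 to 10 the shares were 23.54% and 46.0%, and above 50 they were 56.7% and 20.9%.

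**Figure D1:**
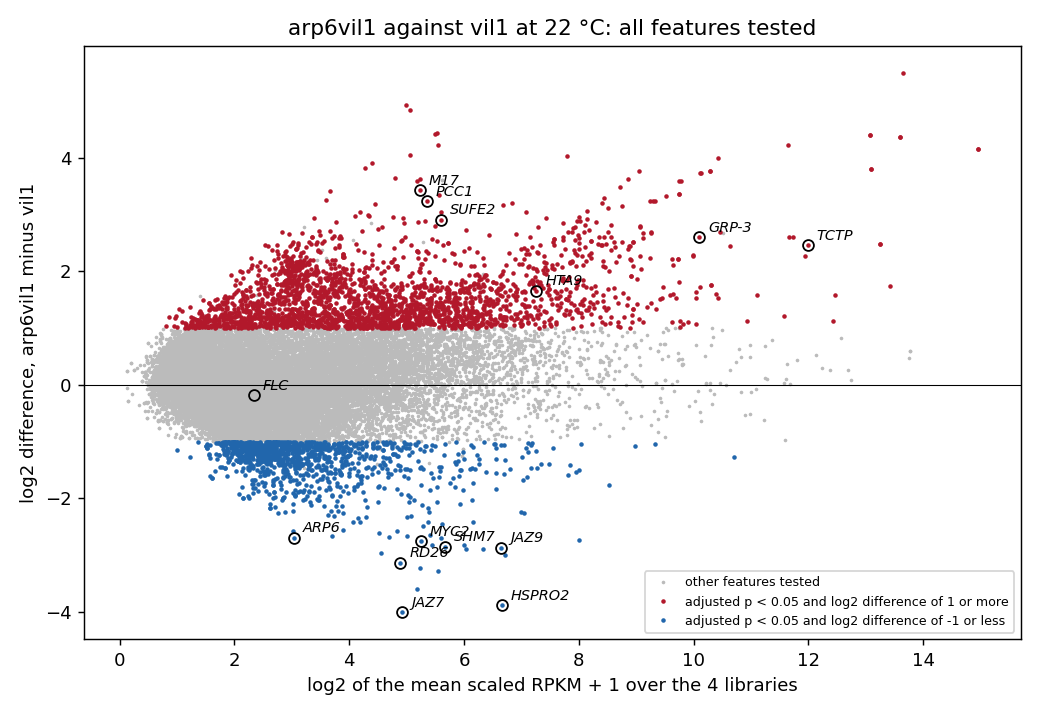
Each point is a feature, with its level over the 4 libraries on the x axis (log2 of the mean scaled RPKM + 1) and its log2 difference, arp6vil1 minus vil1, on the y axis. Red points were higher and blue points lower by at least 1 at an adjusted p under 0.05, and circled genes are named in the text. FLC lies near 0 at -0.18, and JAZ7 and HSPRO2 are among the lowest at -4.01 and -3.89.

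Among the 12 largest falls under the rule for naming genes was JAZ7, a JAZ repressor of jasmonate responses, which had 2.72 and 2.39 scaled RPKM in arp6vil1, against 56.3 and 55.9 in vil1 (log2 difference -4.01 ± 0.18 SE, adjusted p = 6.1e-07). HSPRO2, an Arabidopsis relative of a sugar beet nematode resistance gene, had 11.4 and 12.2 scaled RPKM in arp6vil1, against 186 and 190.4 in vil1 (log2 difference -3.89 ± 0.20 SE, adjusted p = 1.1e-06). In both genes the arp6vil1 libraries stood more than 10-fold below the vil1 libraries. That libraries do not overlap was a condition of the naming rule.

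RD26, a NAC transcription factor induced by drought and abscisic acid, had 5.09 and 5.06 scaled RPKM in arp6vil1, against 51.8 and 52.6 in vil1 (log2 difference -3.13 ± 0.09 SE, adjusted p = 1.5e-07). MYC2, the bHLH factor that leads jasmonate-responsive transcription, had 8.7 and 8.9 scaled RPKM in arp6vil1, against 64.8 and 65.2 in vil1 (log2 difference -2.75 ± 0.09 SE, adjusted p = 2.4e-07). JAZ9, a further jasmonate repressor, had 23.2 and 22.9 scaled RPKM in arp6vil1, against 179 and 171 in vil1 (log2 difference -2.87 ± 0.09 SE, adjusted p = 1.5e-07). In these 3 genes the replicates of each genotype were nearly equal. MYC2 overlaps AT1G32630, which fell by a similar amount (-2.67), and reads of the pair cannot be assigned with certainty.

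Among the rest of the 12 largest falls were the transcription factor genes MYB73 (-3.28) and ERF2 (-2.96), an ethylene-responsive activator of defence genes. BT2, which encodes a BTB and TAZ domain scaffold protein, fell by 2.89 and the phosphate sensor gene SPX1 by 2.82. SRG3, a senescence-related gene for a glycerophosphodiester phosphodiesterase, fell by 3.23. MLP328, of the major latex protein family, had 23 and 21.7 scaled RPKM in arp6vil1, against 189 and 183 in vil1 (log2 difference -3.00 ± 0.14 SE, adjusted p = 7e-07). SHM7, a serine hydroxymethyltransferase gene, had 10.9 and 11.8 scaled RPKM in arp6vil1, against 85.1 and 90.6 in vil1 (log2 difference -2.85 ± 0.34 SE, adjusted p = 8.1e-05).

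The largest rise under the rule for naming genes belonged to M17, a gene of the late embryogenesis abundant class, which had 72.1 and 63.3 scaled RPKM in arp6vil1, against 6.12 and 4.73 in vil1 (log2 difference 3.42 ± 0.40 SE, adjusted p = 6.8e-05). PCC1, a small protein gene regulated by pathogens and the clock, had 77.2 and 67.9 scaled RPKM in arp6vil1, against 8.73 and 5.23 in vil1 (log2 difference 3.24 ± 0.37 SE, adjusted p = 6.6e-05). SUFE2, whose product activates cysteine desulfurase for iron-sulphur cluster assembly, had 84.3 and 85 scaled RPKM in arp6vil1, against 10.8 and 10.01 in vil1 (log2 difference 2.91 ± 0.10 SE, adjusted p = 2.4e-07). For these genes too, libraries that do not overlap were a condition of the rule, and the vil1 libraries of PCC1 were the most spread.

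TCTP, the translationally controlled tumour protein that promotes growth, was among the most abundant genes that rose, with 6953 and 6775 scaled RPKM in arp6vil1, against 1325 and 1172 in vil1 (log2 difference 2.46 ± 0.10 SE, adjusted p = 5e-07). GRP-3, a glycine-rich cell wall protein, had 1877 and 1887 scaled RPKM in arp6vil1, against 326 and 293 in vil1 (log2 difference 2.60 ± 0.14 SE, adjusted p = 1.2e-06). MRD1 had 53 and 54 scaled RPKM in arp6vil1, against 6.57 and 5.69 in vil1, and HEI10, an E3 ligase gene of meiotic crossover formation that overlaps it, had 22.8 and 23.1 scaled RPKM in arp6vil1, against 3.47 and 3.21 in vil1. Since MRD1 and HEI10 overlap each other, their rises of 2.94 and 2.46 may draw on the same reads.

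The other 5 of the 12 largest rises were DI21, a drought-induced gene, at 2.80, the U3 small nucleolar RNA gene U3D at 2.75, the noncoding RNA gene GUT15 at 2.61, the defensin-like gene PDF1.4 at 2.59 and the P-type cyclin gene CYCP4;2 at 2.47. All 24 genes of these groups kept their direction and passed the threshold under each alternative scaling and filter tried that left the gene in the test, and without each of the 4 libraries in turn.

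**Figure D2:**
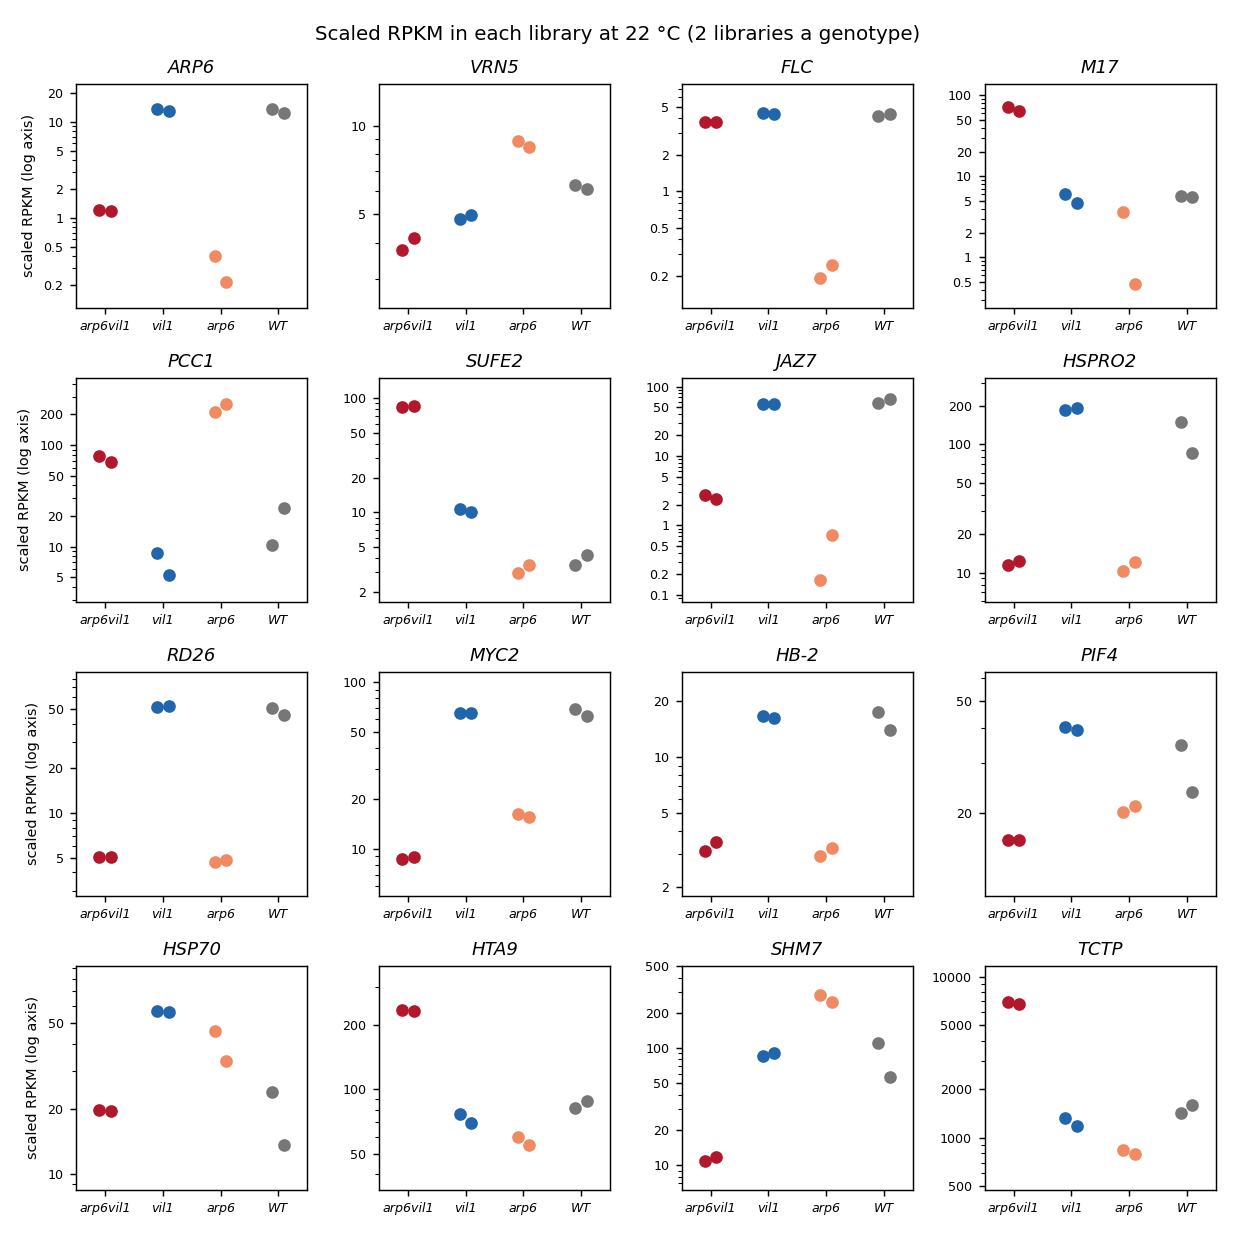
Scaled RPKM (log axis) of 16 genes in each library at 22 °C, for arp6vil1, vil1, arp6 and wild type from left to right, with a point per library. JAZ7, HSPRO2, RD26, MYC2 and HB-2 are low in both genotypes that carry arp6, SUFE2 and TCTP are high in arp6vil1 alone among the 4 genotypes, and FLC is low in arp6 alone.

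Gene groups of known function were then described by how many members passed the threshold, to be read against 33% higher and 25.9% lower over all features and a median of 0.12. The division into higher and lower calls moves with the scale: on the deposited scale 21 of the 24 lists of nuclear genes had more lower members than given here and all 24 had fewer higher members, and with the length trend removed 7 had more and 11 fewer lower members. Of 25 jasmonate and ethylene defence genes tested, 9 were higher, 15 lower and 1 did not pass, with 13 lower and 3 higher by at least 1, and a median of -1.33. The median was -1.92 on the deposited scale, -1.73 after quantile normalization and -1.54 with the length trend removed.

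Genes of jasmonate synthesis in that group fell, with LOX2, the lipoxygenase that opens the pathway, at -2.02, AOC2, an allene oxide cyclase, at -1.76 and OPR3, the reductase of a later step, at -2.16. The JAZ repressor genes fell as well, among them JAZ10, which had 2.64 and 2.47 scaled RPKM in arp6vil1, against 21.7 and 21.4 in vil1 (log2 difference -2.66 ± 0.09 SE, adjusted p = 2.4e-07), JAZ2 at -2.62 and JAZ1 at -2.29. VSP1 and VSP2, storage proteins used as jasmonate markers, differed by -1.91 and -1.50.

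The 9 members that rose were the defensin genes PDF1.2, PDF1.2b and PDF1.2c, PR3, PR4, ORA59, TAT3, CORI3 and THI2.1. PDF1.2 had 5.63 and 4.47 scaled RPKM in arp6vil1, against 0.612 and 0.54 in vil1 (log2 difference 1.93 ± 0.13 SE, adjusted p = 3.5e-06). PR4, a defence gene of the chitin-binding type, averaged 38 scaled RPKM in arp6vil1 and 14.6 in vil1 and rose by 1.33, and the basic chitinase gene PR3 rose by 1.21. ORA59, the ethylene response factor that activates PDF1.2, rose by 0.77. ERF1, a related ethylene response factor, differed by -0.26 (adjusted p = 0.21) and did not pass.

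Rapid stress and touch regulators were also split. Of 16 tested, 5 were higher and 8 lower, the 8 all by at least 1, and the median was -0.50. TCH3, a calmodulin-like touch gene, had 11.4 and 9.99 scaled RPKM in arp6vil1, against 69.8 and 73.9 in vil1 (log2 difference -2.64 ± 0.31 SE, adjusted p = 8e-05), and WRKY33, a transcription factor of defence against necrotrophs, had 2.98 and 3.57 scaled RPKM in arp6vil1, against 22.9 and 25.6 in vil1 (log2 difference -2.56 ± 0.18 SE, adjusted p = 4.1e-06). TCH3 overlaps AT2G41105, which fell as well (-2.90), and reads of the pair cannot be assigned with certainty. WRKY40 and the zinc finger gene SZF1 fell by 1.98 and 2.06. ZAT12, a zinc finger regulator of oxidative stress responses, rose by 1.81, and the cold regulators CBF2 and CBF3 rose by 1.65 and 1.24.

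Of 11 cold and abscisic acid response genes, 2 were higher and 4 lower. The dehydrin genes ERD10 and COR47 fell by 1.94 and 1.85. COR15A, a chloroplast cold protein gene, differed by 0.36 and COR15B by -0.77.

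Salicylic acid defence genes were 9 higher and 6 lower of 21 tested, with a median of 0.49 that changed sign to -0.20 on the deposited scale. PAD4, a lipase-like protein of basal immunity, had 13.7 and 12.6 scaled RPKM in arp6vil1, against 5.34 and 5.53 in vil1 (log2 difference 1.14 ± 0.11 SE, adjusted p = 2e-05), and LURP1, a gene induced in defence against an oomycete, rose by 1.37 at low levels. WRKY70, which links salicylic and jasmonic acid signalling, had 2.64 and 2.16 scaled RPKM in arp6vil1, against 7.63 and 8.47 in vil1 (log2 difference -1.41 ± 0.19 SE, adjusted p = 0.00017). PR1, the usual marker of the pathway, averaged 1.45 scaled RPKM in arp6vil1 and 0.623 in vil1.

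**Figure D3:**
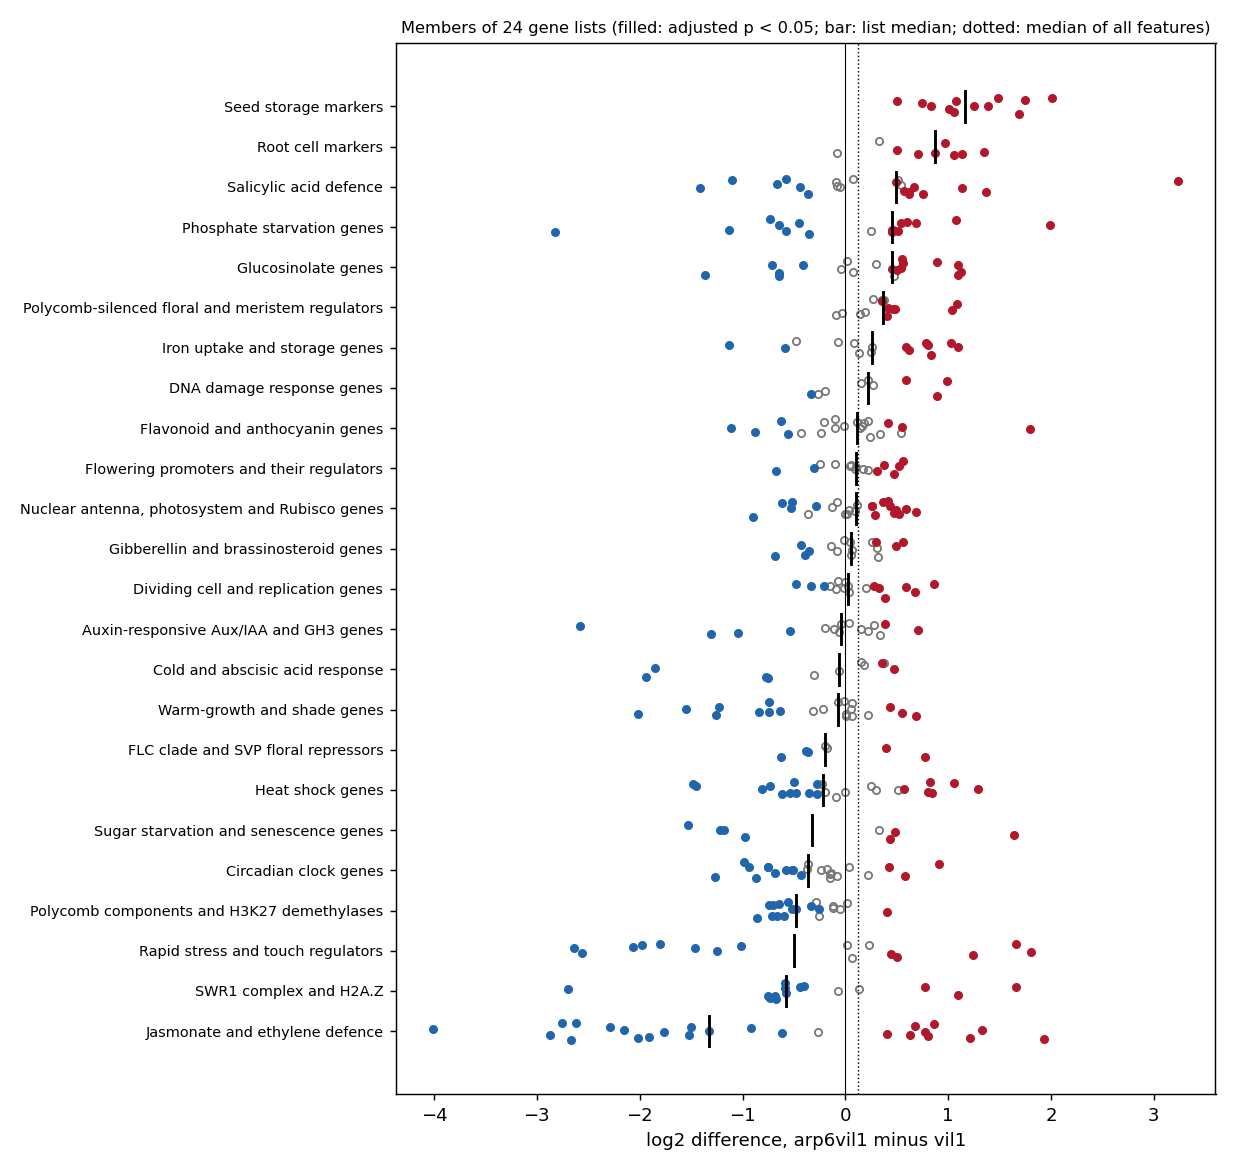
Log2 differences, arp6vil1 minus vil1, of the tested members of 24 gene lists, ordered by list median (black bar). Filled points passed an adjusted p under 0.05 (red higher, blue lower), open points did not, and the dotted line is the median of all features, 0.12. Jasmonate and ethylene genes reach from -4.01 to 1.93, and the seed storage markers all lie above 0.

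Genes of the SWR1 complex and of H2A.Z moved apart from each other. Of 15 tested, 3 were higher, 10 lower and 2 did not pass, with a median of -0.58. The 3 that rose were H2A.Z genes: HTA9 had 233 and 230.2 scaled RPKM in arp6vil1, against 76.2 and 69.1 in vil1 (log2 difference 1.66 ± 0.09 SE, adjusted p = 1.2e-06), HTA8 rose by 1.09 and HTA11 by 0.78. Both arp6vil1 libraries of HTA9 were about 3-fold above the vil1 libraries. HTA11 did not pass on the deposited scale (0.07), whereas HTA9 (0.90) and HTA8 (0.42) did.

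Apart from ARP6, complex subunits that fell did so by less than 1, such as YAF9A at -0.73, the ATPase subunit gene PIE1 at -0.41 and RVB2A at -0.75. Long genes were lower as a class in arp6vil1, and with the length trend removed the count of lower members was 7 in place of 10. SWC6, whose product binds ARP6, differed by -0.08 (adjusted p = 0.65).

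Polycomb components and the H3K27 demethylases were 1 higher and 12 lower of 19 tested, none of them by 1 or more. The lowest were the demethylase genes JMJ13 at -0.86, REF6 at -0.75 and ELF6 at -0.70, and LHP1, which binds H3K27me3, at -0.71. ELF6 overlaps AT5G04238, which fell as well (-2.58), and reads of the pair cannot be assigned with certainty. With the length trend removed 2 were higher and 4 lower, the median was -0.11 against -0.48 before, and REF6 (-0.27, adjusted p = 0.083) and ELF6 (-0.21, adjusted p = 0.22) no longer passed. VIN3, the partner of VRN5 that cold induces, rose by 0.41.

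Regulators that Polycomb is known to keep silent in leaves were at low levels throughout: of 14 tested, 7 were higher and 7 did not pass, and 7 more did not reach the filter. Among all features under 1 scaled RPKM in vil1, 48.4% were higher and 0.183% lower. From 1 to 2 scaled RPKM the shares were 26.0% and 6.0%, so the count does not set these regulators apart from other genes at low levels. STM, the homeobox gene of the shoot meristem, had 3.23 and 3.31 scaled RPKM in arp6vil1, against 1.04 and 0.981 in vil1 (log2 difference 1.09 ± 0.12 SE, adjusted p = 5.4e-05), and CUC1, an organ boundary gene, had 3.72 and 4.71 scaled RPKM in arp6vil1, against 1.51 and 1.57 in vil1 (log2 difference 1.03 ± 0.11 SE, adjusted p = 4.1e-05). On the deposited scale 2 of the 14 were higher and 2 lower, after background subtraction 2 were higher and 1 lower, and on the deposited scale STM (0.55) and CUC1 (0.46) kept their direction. AG, the floral homeotic gene, was below the filter.

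The floral repressors showed no common direction. FLC had 3.74 and 3.75 scaled RPKM in arp6vil1, against 4.41 and 4.36 in vil1, a log2 difference -0.18 ± 0.08 SE, adjusted p = 0.086, so the 2 groups differed by little although their libraries did not overlap. The FLC value was not stable: it was -0.76 on the deposited scale, and 0.32 (adjusted p = 0.096) with the length trend removed. SVP, a repressor that acts with FLC, had 47 and 46.3 scaled RPKM in arp6vil1, against 28.8 and 24.9 in vil1 (log2 difference 0.78 ± 0.11 SE, adjusted p = 0.00019) and did not pass on the deposited scale (0.03).

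MAF2, an FLC relative, fell by 0.63, and FLM rose by 0.39 in the scaled values but was -0.26 in the deposited RPKM. Of 7 tested in the clade, 2 were higher and 3 lower. FT, the mobile flowering signal, was below the filter and had 0.928 and 0.826 scaled RPKM in arp6vil1, against 0.4 and 0.551 in vil1. SOC1, a floral integrator, had 6.38 and 6.34 scaled RPKM in arp6vil1, against 5.6 and 5.04 in vil1, and its log2 difference 0.22 ± 0.09 SE, adjusted p = 0.066 did not pass and was -0.42 on the deposited scale. Of 15 flowering promoters and their regulators tested, 5 were higher and 2 lower.

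Warm-growth and shade genes were 3 higher and 8 lower of 21 tested, 4 of the 8 by at least 1, with a median of -0.07. With the length trend removed 2 were higher and 14 lower with a median of -0.40, and on the deposited scale 19 were lower. HB-2, a homeobox gene of shade avoidance, had 3.11 and 3.51 scaled RPKM in arp6vil1, against 16.6 and 16.3 in vil1 (log2 difference -2.01 ± 0.12 SE, adjusted p = 1.5e-06). PIF4, the bHLH factor that drives growth in warmth, had 16.1 and 16.1 scaled RPKM in arp6vil1, against 40.2 and 39.3 in vil1 (log2 difference -1.25 ± 0.14 SE, adjusted p = 5.3e-05), and its relatives PIF5 and PIF1 fell by 1.55 and 1.22. All 4 genes had libraries that did not overlap between genotypes, but the share of all features for which this holds is not given here.

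YUC8, an auxin synthesis gene that PIF4 activates, had 4.65 and 5.01 scaled RPKM in arp6vil1, against 4.18 and 3.84 in vil1 and did not pass (0.22, adjusted p = 0.069; -0.39 on the deposited scale). Among auxin-inducible genes, IAA29 had 1.5 and 2.02 scaled RPKM in arp6vil1, against 4.25 and 3.62 in vil1 (log2 difference -0.84 ± 0.14 SE, adjusted p = 0.00061). IAA19 differed by 0.55, or by -0.06 on the deposited scale. IAA2, an Aux/IAA repressor gene, had 6.02 and 8.44 scaled RPKM in arp6vil1, against 47.4 and 48 in vil1 (log2 difference -2.58 ± 0.23 SE, adjusted p = 1.4e-05), and of 15 Aux/IAA and GH3 genes 2 were higher and 4 lower.

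Heat shock genes were 6 higher and 11 lower of 24, with a median of -0.22. HSP70, a cytosolic chaperone gene read as a thermosensory output, had 19.6 and 19.5 scaled RPKM in arp6vil1, against 56.8 and 56.2 in vil1 (log2 difference -1.48 ± 0.21 SE, adjusted p = 0.00026), and HSP90.2 had 18.7 and 19.99 scaled RPKM in arp6vil1, against 51.9 and 57.5 in vil1 (log2 difference -1.45 ± 0.26 SE, adjusted p = 0.00095). Small heat shock protein genes went the other way where they moved most, with HSP23.6 of mitochondria at 1.29 and HSP17.6C at 1.06. Neither of those 2 passed on the deposited scale, where they were 0.53 and 0.39.

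Of 24 clock genes 3 were higher and 11 lower. The clock repressor genes PRR7 and PRR5 fell by 0.98 and 0.93, the PRR7 call being lost without arp6vil1 replicate 1 (adjusted p = 0.076) and without vil1 replicate 2 (adjusted p = 0.096). RVE1, a MYB-like factor of morning auxin synthesis, fell by 1.27, and its relative RVE6 differed by 0.91, or by 0.21 on the deposited scale, where it did not pass.

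Phosphate starvation genes were 9 higher and 7 lower of 17. SPX1 had 15 and 14.7 scaled RPKM in arp6vil1, against 116 and 105 in vil1 (log2 difference -2.82 ± 0.17 SE, adjusted p = 2e-06) and SPX2, a second phosphate sensor gene, fell by 1.13. AT4, a noncoding RNA that mimics a microRNA target, had 59.5 and 58.4 scaled RPKM in arp6vil1, against 16 and 12.5 in vil1 (log2 difference 1.99 ± 0.17 SE, adjusted p = 9.9e-06), and the transporter gene PHT1;1 differed by 1.08, or by 0.34 on the deposited scale.

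Iron genes were 7 higher and 2 lower of 15, with the ferritin gene FER4 at 1.03 and BTS, an E3 ligase that restrains iron uptake, at -1.13. Glucosinolate genes were 9 higher and 5 lower of 19. The largest rise in that list was MYB34 at 1.13. The aliphatic pathway regulator MYB28 rose by 1.09 and its enzyme gene CYP83A1 by 1.09, whereas UGT74B1, a glucosyltransferase gene, fell by 1.36. Flavonoid genes were 3 higher and 4 lower of 21, and PAP2, an anthocyanin regulator, had 8.29 and 7.77 scaled RPKM in arp6vil1, against 1.5 and 1.7 in vil1 (log2 difference 1.79 ± 0.12 SE, adjusted p = 3.5e-06). Its relative PAP1 went the other way at -0.63, as did DFR at -0.88 and MYBL2 at -1.11, and all of these passed.

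Smaller lists gave mixed counts. Sugar starvation and senescence genes were 3 higher and 4 lower of 8, with SAG21 at 1.64 and SEN1 at -1.22. Dividing cell and replication genes were 6 higher and 3 lower of 17, DNA damage response genes 3 higher and 1 lower of 9, and gibberellin and brassinosteroid genes 3 higher and 4 lower of 16. No member of these last 3 lists differed by 1 or more.

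Markers of other tissues and organelle genes were read in the same way. All 12 seed storage markers were higher, 9 of them by at least 1, with a summed level of 47.9 and 50.5 scaled RPKM in arp6vil1, against 12.1 and 12.8 in vil1. OLEO2, an oil body protein, had 6.45 and 6.68 scaled RPKM in arp6vil1, against 0.799 and 0.966 in vil1 (log2 difference 2.01 ± 0.13 SE, adjusted p = 2.3e-06), and the cruciferin gene CRA1 had 4.94 and 5.61 scaled RPKM in arp6vil1, against 1.13 and 1.37 in vil1 and lost its call without vil1 replicate 1 (adjusted p = 0.052). The markers were at low levels in every library. Of all features under 1 scaled RPKM in vil1, 48.4% were higher and 0.183% lower, and from 1 to 2 the shares were 26.0% and 6.0%. In whole seedlings, a change in the number of cells of a type and a change in RNA per cell cannot be told apart, and the part of seed RNA in the rises of M17 and other late embryogenesis genes was not tested.

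Of 9 root cell markers 7 were higher and 2 did not pass, on a summed level of 430.8 and 429.8 scaled RPKM in arp6vil1, against 412.4 and 425.6 in vil1, a sum led by the abundant PYK10, which differed by -0.08 and did not pass. CASP1, a Casparian strip protein, differed by 1.35. On the deposited scale 1 of the 9 was higher and 1 lower.

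Chloroplast-encoded genes were 125 higher and 3 lower of 133, 110 of them higher by at least 1, with a median of 2.39, and mitochondria-encoded genes were 151 higher of 152, with a median of 1.91. ATCG00020 had 6157 and 5975 scaled RPKM in arp6vil1, against 379 and 279 in vil1. On the deposited scale 105 chloroplast genes were higher and 12 lower, and 146 mitochondrial genes were higher. By contrast, nuclear antenna, photosystem and Rubisco genes were 11 higher and 5 lower of 24, with a median of 0.10. On the deposited scale 21 of the 24 were lower and 3 did not pass, and after quantile normalization 23 were lower and 1 did not pass. LHCB2.3, a light-harvesting protein gene, was lower under all of these, at -0.90 in the main values. Whether RNA selection or processing differed between the genotypes was not tested.

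The difference varied with gene length as well. Among 13214 nuclear genes at a mean of 5 RPKM or more, the median was 0.54 for genes of 501 to 1000 bases, 0.18 for 1501 to 2000 bases, -0.30 for 3001 to 4000 bases and -0.54 above 6000 bases. The shortest genes, of 1 to 500 bases, did not follow this fall, with a median of 0.04. The Spearman correlation with length was -0.33 for arp6vil1 minus vil1, and between replicates it was -0.11 in arp6vil1, -0.28 in vil1, -0.060 in arp6 and 0.50 in wild type, so differences within a genotype also went with length in some pairs. These are descriptions across genes, which are not independent replicates. After a smooth trend was removed the bins' medians lay between -0.12 and 0.11.

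**Figure D4:**
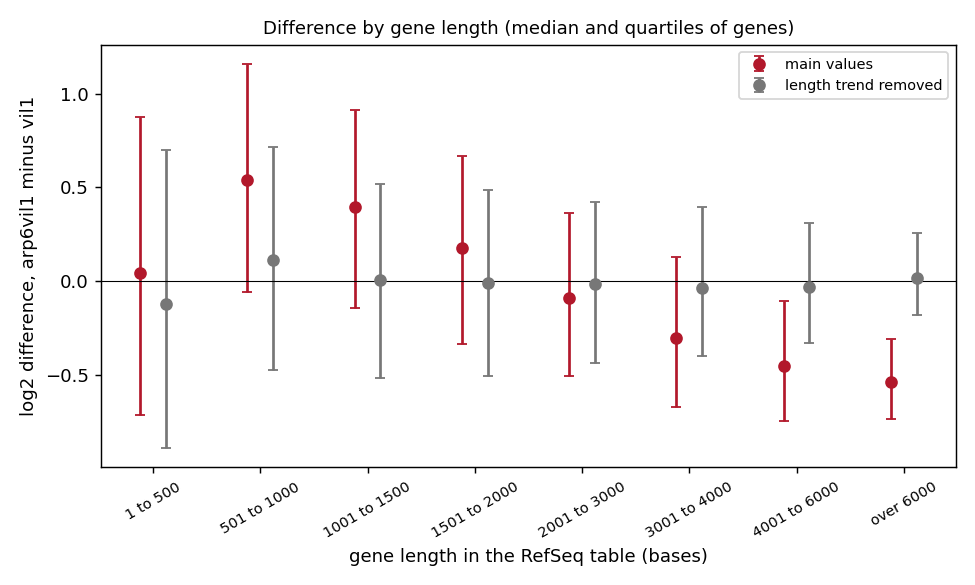
Log2 differences, arp6vil1 minus vil1, by gene length in bases, as the median (point) and quartiles (bars) of the genes in each bin, for the main values (red) and with the length trend removed (grey). The red medians are 0.04 at 1 to 500 bases and fall from 0.54 at 501 to 1000 bases to -0.54 above 6000 bases. The grey medians stay between -0.12 and 0.11.

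Loss of ARP6 could be compared between backgrounds, since arp6vil1 against vil1 shares no library with arp6 against wild type. Of all features, 82.2% passed between arp6 and wild type, 24.4% higher and 57.8% lower in arp6, and 9.2% were higher and 27.5% lower by at least 1. Among nuclear genes at a mean of 5 RPKM or more, 247 fell by at least 1 in both comparisons, which is 24.9% of the 992 that fell in vil1 plants and 13.0% of the 1893 that fell in wild type. Of all 13224 such genes, 7.502% fell in vil1 plants and 14.3% in wild type, and 10.7% rose in vil1 plants and 16.7% in wild type. Another 245 fell in vil1 plants but rose in wild type. For rises 111 were shared, 7.82% of 1419 and 5.02% of 2212, and 218 rose in vil1 plants but fell in wild type. Across these genes the differences correlated at Pearson r = -0.13 and Spearman rho = -0.23, as a description.

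The difference between the 2 effects, arp6vil1 minus vil1 less arp6 minus wild type, passed in the same limma fit for 81.5% of features, 57.4% above 0 and 24.1% below 0. It was at least 1 in size for 40.9% above 0 and 14% below 0, so a passing gene by itself is not set apart. With each library's 10th percentile of coding genes subtracted, 9979 features passed above 0 in place of 18043. After quantile normalization 9648 did. The part that the features listed at 0 in the arp6 libraries have in these counts was not tested.

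FLC differed between the backgrounds. It had 0.191 and 0.243 in arp6, against 4.2 and 4.35 in wild type (-2.12), and 3.74 and 3.75 in arp6vil1, against 4.41 and 4.36 in vil1 (-0.18). The difference between the effects was 1.93 ± 0.12 (SE, adjusted p = 1.2e-06), and it was 1.53 after background subtraction and 0.73 to 4.07 over the alternatives, above 0 in each. FLC was thus low in arp6 alone, and every library of the other 3 genotypes lay between 3.74 and 4.41 scaled RPKM.

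RD26, HB-2 and HSPRO2 were lower with arp6 in both backgrounds. RD26 had 4.71 and 4.86 in arp6, against 51 and 46 in wild type (-3.09, next to -3.13 in vil1 plants), and the difference of -0.04 ± 0.13 (SE, adjusted p = 0.8) did not pass, though it did on the deposited scale (-0.52, adjusted p = 0.0056). HB-2 had 2.95 and 3.25 in arp6, against 17.57 and 14 in wild type (-2.02, next to -2.01), with a difference of 0.01 ± 0.16 (SE, adjusted p = 0.96) that was -0.43 and passed on the deposited scale (adjusted p = 0.028). With background subtracted, low genes left out and the length trend removed, the difference passed for RD26 (-0.41, adjusted p = 0.023) and HB-2 (-0.71, adjusted p = 0.0076). HSPRO2 had 10.3 and 12.2 in arp6, against 149 and 85.3 in wild type (-3.22, next to -3.89), with a difference of -0.66 ± 0.29 (SE, adjusted p = 0.054) that passed when the length trend was removed (-1.02, adjusted p = 0.0099), on the deposited scale (-1.21, adjusted p = 0.0022) and without wild-type replicate 1 (-1.06, adjusted p = 0.00012).

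PCC1 rose in both backgrounds, with 211 and 252 in arp6, against 10.3 and 23.8 in wild type (3.79, next to 3.24) and a difference of -0.56 ± 0.53 (SE, adjusted p = 0.34). It passed with the length trend removed (-1.62, adjusted p = 0.007) and without wild-type replicate 2 (-1.12, adjusted p = 0.047). JAZ7 fell in both, with 0.162 and 0.734 in arp6, against 58.2 and 66 in wild type (-5.47, next to -4.01), and the difference of 1.46 ± 0.26 (SE, adjusted p = 0.00049) did not pass after the length trend was removed (0.38, adjusted p = 0.24). JAZ9 fell further in wild type (-4.04) than in vil1 plants (-2.87). BT2 fell by 3.48 in wild type, with a limma difference of 0.59 ± 0.30 (SE, adjusted p = 0.093). That difference passed with the length trend removed (1.17, adjusted p = 0.003), among other settings. For PCC1, RD26, HB-2, HSPRO2 and BT2 a p that misses the threshold does not show that the effects are alike.

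Other genes moved in opposite directions, and SUFE2 passed in vil1 plants alone. SHM7 had 284 and 249.7 in arp6, against 111 and 57.2 in wild type (1.73) beside -2.85 in vil1 plants, a difference of -4.58 ± 0.48 (SE, adjusted p = 1.9e-05). HSP70 had 45.6 and 33.3 in arp6, against 23.8 and 13.6 in wild type (1.07) beside -1.48, a difference of -2.56 ± 0.30 (SE, adjusted p = 3.7e-05), and its levels in vil1, 56.8 and 56.2, were already above both wild-type libraries. TCTP had 838 and 792 in arp6, against 1421 and 1605 in wild type (-0.89) beside 2.46, and M17 had 3.59 and 0.463 in arp6, against 5.76 and 5.59 in wild type (-1.36) beside 3.42. SUFE2 had 2.95 and 3.47 in arp6, against 3.48 and 4.21 in wild type and did not pass there (-0.20), with a difference of 3.11 ± 0.14 (SE, adjusted p = 3.6e-07).

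**Figure D5:**
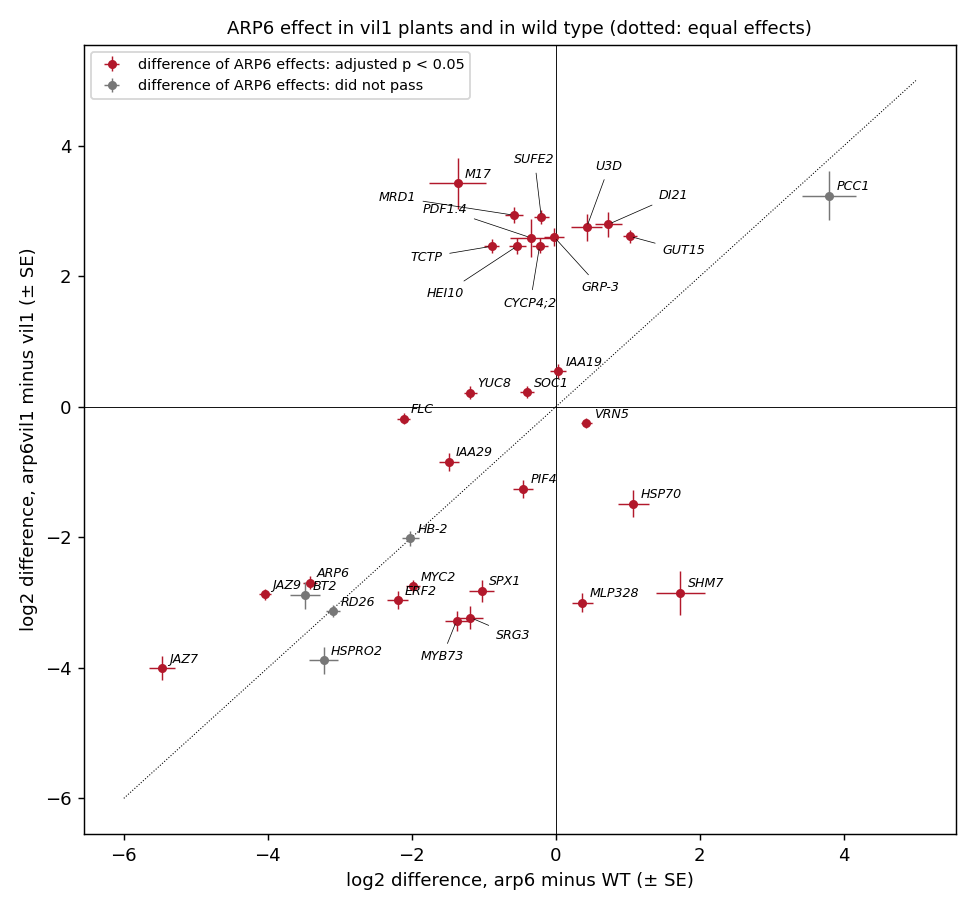
Log2 difference (± SE) of the effect of arp6 in vil1 plants (y axis, arp6vil1 minus vil1) against its effect in wild type (x axis, arp6 minus WT) for ARP6, VRN5, the 24 largest changes and the further genes chosen for naming that were tested. Red points passed the limma test of the difference at an adjusted p under 0.05, and the dotted line marks equal effects. PCC1, RD26, HB-2, HSPRO2 and BT2 are the grey points, which did not pass, while SHM7, HSP70 and MLP328 lie at lower right, higher in arp6 than in wild type and lower in arp6vil1 than in vil1.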

How the data were processed

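RNA-seq libraries of 14-day-old seedlings were deposited as a table of RPKM for 34262 features and 12 libraries. The submitters' processing notes name FastQC, HISAT2, Bowtie2, SAMtools, bedtools, edgeR and the TAIR10 build, without tying a tool to an assay. RNA was extracted with TRIzol, treated with DNase and made into libraries with an NEB kit, per the labels' protocols. As usually defined, RPKM divides by total reads, so a library rich in plastid or ribosomal RNA has lower RPKM for nuclear genes. Deposited RPKM were therefore divided by a factor per library, the median ratio to the geometric mean over 13189 nuclear features at a mean RPKM of 5 or more. The factors were 0.661 and 0.601 in arp6vil1, 1.06 and 1.08 in vil1, 0.978 and 0.958 in arp6, and 1.06 and 1.09 in wild type.

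Of the features, 31454 reached 1 RPKM in no fewer than 2 libraries and were fitted in limma 3.58.1 (R 4.3.3) on log2(scaled RPKM + 1), with 1 mean for each of the 6 groups, a mean trend in the variance and two-sided tests at an adjusted p under 0.05. Whole reads were recovered from the deposited RPKM and feature lengths, and 99.94 to 99.95% of values were whole within 0.02 reads. They served for depth, 52.5 to 102.8 M reads, and for limma voom as an alternative. Replicate numbers did not pair the libraries: over 15 pairs of groups the correlation of replicate differences ran from -0.26 to 0.23, and it was -0.03 for arp6vil1 and vil1.

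Symbols, lengths and overlaps came from a RefSeq gene table of another named assembly, TAIR10.1, in which 32548 loci matched, and no coordinates are given. Further named genes, among them FLC, HTA9, WRKY33 and CYCP4;2, also overlap another gene, and their reads carry the same uncertainty. The genes named are ARP6 and VRN5, the 12 largest rises and 12 largest falls among nuclear genes with a symbol, adjusted p under 0.05, libraries that do not overlap, a mean of 5 scaled RPKM in a group and no near-identical feature, up to 4 members of each of 24 lists (plus plastid and mitochondrial genes), and 9 fixed genes. Other list members given in the text were picked for their roles after their values were seen. The comparison, the genes and the lists were chosen with earlier results of these data known. Scripts were tested on simulated data. Alternatives were the deposited scale, quantile normalization, background subtraction, removal of the length trend, other filters, pseudocounts and fits, and leaving out each library.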

Additional observations from a re-analysis of the deposited data

Results flagged for a closer look

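The effect of arp6 was set between backgrounds as the log2 difference arp6vil1 minus vil1, less arp6 minus wild type. A test of this difference in the limma fit passed for 81.5% of all features, and the arp6 libraries have 6651 and 6566 features listed at 0, so the genes below are given as values and no explanation was tested.

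Among the genes that rose most in arp6vil1, the difference was 4.79 for M17, 3.52 for MRD1, 3.35 for TCTP and 3.11 for SUFE2. It was 3.0 for HEI10, 2.94 for PDF1.4, 2.70 for CYCP4;2 and 2.63 for GRP-3. U3D gave 2.32, DI21 2.07 and GUT15 1.59, and DI21 and GUT15 also rose in arp6 against wild type (0.73 and 1.03). Each of these 11 genes was above 0 under every alternative tried.

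Among the genes that fell most, the difference was -4.58 for SHM7, -3.37 for MLP328, -2.04 for SRG3, -1.90 for MYB73 and -1.79 for SPX1, below 0 under every alternative. ERF2 gave -0.77. MYC2 gave -0.77, which turned to 0.011 with the length trend removed. JAZ7 and JAZ9 gave 1.46 and 1.17, since they fell further in arp6 than in arp6vil1 on this scale, and JAZ7 turned to -0.12 with background and length trend both removed.

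For ARP6 itself the difference was 0.72, and -0.24 after background subtraction. VRN5 gave -0.68. Of the fixed genes, FLC gave 1.93, YUC8 1.41, SOC1 0.62, IAA29 0.64 and IAA19 0.52, while PIF4 gave -0.80 and HSP70 -2.56. IAA29 turned to -0.16 after background subtraction, and PIF4 no longer passed with the length trend removed (-0.21, adjusted p = 0.24).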

How the results depend on the processing

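For arp6vil1 against vil1, features past the threshold numbered 18547 (10392 higher and 8155 lower). They were 10053 (5175 higher, 4878 lower) at a mean RPKM of 5 or more, 9441 (4722 and 4719) with the length trend also removed and 9700 (4886 and 4814) with background subtracted as well, where fewer features were tested and the 2 settings with the length trend were added after seeing the data. A log2 change of at least 1 left 3541 (2375 and 1166). The split was 2251 and 15992 on the deposited scale, 7876 and 10399 after background subtraction and 8041 and 9193 after quantile normalization. Leaving out each library gave 14305 to 14958 (7953 to 8408 higher, 6352 to 6930 lower), and the cause of other shifts was not tested.

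For the difference between backgrounds, 25639 features passed (18043 above 0 and 7596 below). They were 11280 (6124 above 0) at a mean of 5 RPKM, 10169 (5274 and 4895) with the length trend also removed and 10214 (5259 and 4955) with background subtracted as well. Above 0, 9648 passed after quantile normalization and 9979 after background subtraction, and 4389 lay below 0 with a change of at least 1. Leaving out each library gave 24250 to 26013 (17095 to 18370 above 0, 7100 to 7643 below). Fits with the replicate number as a block gave 18092 (10120 and 7972) and 25391 (17905 and 7486) and changed no call of a named gene. Voom on recovered reads gave 9824 higher and 8119 lower.

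Direction turned on the deposited scale for FLM (-0.26), TOE1 (-0.18), TOE2 (-0.25), LHCB6 (-0.080), LHB1B2 (-0.17), SMR4 (-0.029), PCNA2 (-0.11), CPD (-0.19), GA2OX1 (-0.052), SOC1 (-0.42), YUC8 (-0.39) and IAA19 (-0.065), and for the difference between backgrounds in HB-2 (-0.43). Quantile normalization turned LHCB6 (-0.22) and LHB1B2 (-0.75), and the difference in ARP6 (-0.37) and IAA29 (-0.25). Removing the length trend turned PARP1 (0.17), and the difference in MYC2 (0.011, also at a mean of 5 RPKM). Background subtraction turned the difference in ARP6 (-0.24) and IAA29 (-0.16), and with the filter and the length trend in ARP6 (-0.50), JAZ7 (-0.12), MYC2 (0.12) and HB-2 (-0.71).

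Of 26 lists, 10 had a median above that of all features, and 7 to 13 over the alternatives. Settings that removed the length trend or kept nuclear protein-coding genes alone hold no chloroplast or mitochondrial list, so their counts are over fewer lists. The count of 7 came from settings with the length trend removed. Levels near the 10th percentile of coding genes cannot be told from background at this depth, which limits statements on genes near 1 scaled RPKM. With 2 libraries a group, the estimate of spread rests on all 12.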

Other observations

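Some of the largest changes lay in genes that have no symbol in the gene table and so fell outside the naming rule. They were chosen after their values were seen. AT3G28500 had 64.9 and 61.2 scaled RPKM in arp6vil1, against 1.32 and 1.15 in vil1 (log2 difference 4.84), and AT1G68250 had 62.8 and 58.3 scaled RPKM in arp6vil1, against 0.837 and 1.21 in vil1 (4.93). In arp6 and wild type AT3G28500 averaged 1.18 and 1.36, and AT1G68250 averaged 2.38 and 0.956, so both were high in arp6vil1 alone among the 4 genotypes at 22 °C.

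AT5G42530 and AT1G26250 rose in both backgrounds. AT5G42530 had 416 and 414 scaled RPKM in arp6vil1, against 25.3 and 23.4 in vil1 (4.04), and averaged 219 in arp6 and 18.9 in wild type (3.51). AT1G26250 had 37.2 and 39.8 scaled RPKM in arp6vil1, against 1.37 and 1.94 in vil1 (3.90), and averaged 121 in arp6 and 2.74 in wild type (4.79). The neighbour AT1G26255 gave nearly the same values (3.82 in vil1 plants), so the pair may draw on the same reads.

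Among falls, AT5G37990 had 4.69 and 4.25 scaled RPKM in arp6vil1, against 60.3 and 71 in vil1 (-3.60) but was higher in arp6 than in wild type (1.14). AT4G32480, AT3G07350 and AT3G19030 fell in both backgrounds, by 2.82, 2.49 and 2.42 in vil1 plants and by 3.29, 3.90 and 2.46 in wild type.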
